A study of Homo sapiens with 4 samples.

Results

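The Schlafen genes of 786-0 cells were followed from control siRNA to siRNA against SLFN5. The family was taken as 7 gene names in the deposited table: SLFN5, SLFN11, SLFN12, SLFN13, SLFN12L, SLFN14 and SLFNL1. All 7 had a row among the 57659 genes of the table. Of these, 4 passed the filter for low values and were tested with 15640 genes in all. The line 786-0 is an established human renal cell carcinoma line that lacks the VHL tumour suppressor and therefore keeps hypoxia-inducible factor 2 active. Both groups consisted of transfected 786-0 cells without other stated treatment: control 1 and control 2 received control siRNA, and SLFN5 siRNA 1 and SLFN5 siRNA 2 received siRNA against SLFN5, which makes 2 libraries per group. RNA was measured by poly(A)-selected, single-end sequencing. The labels give neither the siRNA sequences nor the time after transfection, and do not say whether replicates were cultured separately, so p-values measure only the spread between these libraries, which may be technical.

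Schlafen genes are found in vertebrates, and several of the human members are induced by type I interferon, which signals through its receptor, JAK kinases and STAT transcription factors. The longer members, SLFN5, SLFN11, SLFN13 and SLFN14, carry a helicase-like part at the C terminus and mostly act in the nucleus or on RNA, whereas SLFN12 and SLFN12L are shorter. SLFN5 is known as a nuclear regulator of transcription that restrains cell movement in renal carcinoma. SLFN11 blocks stressed replication forks, makes tumour cells sensitive to DNA-damaging drugs, and cleaves transfer RNAs. SLFN12 is the ribonuclease that is switched on when small molecules glue it to the phosphodiesterase PDE3A. SLFN13 cuts transfer and ribosomal RNA, and SLFN14 is a ribosome-bound ribonuclease of the platelet and red cell lineages.

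The family members resemble one another, which bears on what an siRNA against one could pair with and on which gene a short read is assigned to. Identity was taken over the aligned bases alone. In the GENCODE v29 coding sequences, SLFN5 was 67.8% identical to SLFN11, 70.5% to SLFN12 and 69.3% to SLFN13. The aligned bases made up 96.4%, 63.3% and 96.1% of the longer sequence of each pair, so these identities do not rank the members. SLFNL1 also reached 69.3%, over 45.3% of the longer sequence. Runs of at least 19 identical bases, about the length that an siRNA pairs, were counted between coding sequences. SLFN5 shared 6 such runs with SLFN11, 1 with SLFN12, 6 with SLFN13, 4 with SLFN12L and 0 with SLFN14. A single siRNA could match both messages in any of these runs. Only the longest run that SLFN5 shared with each of the other 3 tested members is shown. Capitals mark the identical run.
SLFN5, coding bases 1951 to 1991: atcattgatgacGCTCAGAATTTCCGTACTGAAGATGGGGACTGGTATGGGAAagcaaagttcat
SLFN11, coding bases 2008 to 2048: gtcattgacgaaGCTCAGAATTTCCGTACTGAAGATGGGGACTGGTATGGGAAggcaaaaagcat
SLFN5, coding bases 645 to 668: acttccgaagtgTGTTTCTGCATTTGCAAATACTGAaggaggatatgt
SLFN12, coding bases 675 to 698: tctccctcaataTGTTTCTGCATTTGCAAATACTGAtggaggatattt
SLFN5, coding bases 2026 to 2064: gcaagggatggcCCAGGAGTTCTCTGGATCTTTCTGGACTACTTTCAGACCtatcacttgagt
SLFN13, coding bases 2083 to 2121: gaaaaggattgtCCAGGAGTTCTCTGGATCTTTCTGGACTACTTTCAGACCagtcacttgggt
The runs were 41 bases long for SLFN11, 24 for SLFN12 and 39 for SLFN13. Positions are counted from the first base of the start codon. Whether the siRNA used falls in such a run was not tested, since its sequence is not given in the sources used here.

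Read assignment between members was limited by far longer shared stretches elsewhere in the family. SLFN11 and SLFN13 were 87.2% identical in their coding sequences, with a longest identical run of 516 bases. SLFN12 and SLFN12L were likewise 87.2% identical, with a longest run of 79 bases. Of all 50-base windows of the annotated transcripts, 0 of 10706 of SLFN5 also occurred in another Schlafen gene, against 617 of 6370 (9.69%) for SLFN11, 1.33% for SLFN12 and 617 of 9498 (6.50%) for SLFN13. The values of SLFN5 thus drew on sequence that no other member holds at that length. Those of SLFN13, the rarer partner of SLFN11, are uncertain to the extent that the authors' counting split shared reads. The exons of the 4 tested members overlapped no other annotated gene. Antisense exons covered 30.1% of the exon bases of SLFNL1 (SLFNL1-AS1), 12.01% of those of SLFN14 and 7.69% of those of SLFN12L, and the library kit does not mark strand.

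The siRNA target fell in both SLFN5 siRNA libraries. In adjusted counts, the values the authors deposited after bringing the libraries to a common size, SLFN5 (ENSG00000166750) stood at 420 and 353 for controls 1 and 2, and at 167 and 118 for SLFN5 siRNA 1 and 2. The groups did not overlap, and the library SLFN5 siRNA 2 was the lowest. The mean fell from 387 ± 47.7 to 142 ± 34.4 adjusted counts (SD, n = 2 libraries). By the fitted log2 change given below, 36.6% of the control level was left. Over the single pairings of an SLFN5 siRNA library with a control library, the remaining level ranged from 28.1% to 47.2%. The log2 change on the log2(value + 1) scale was -1.45 (standard error, SE, 0.21), with an adjusted p of 0.000524 by limma with Benjamini-Hochberg adjustment over all 15640 genes. Behind these values lay 721 and 243 recovered read counts in the controls and 163 and 101 in the SLFN5 siRNA libraries.

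SLFN11 (ENSG00000172716), the most abundant member, fell as well. Its values were 1400 and 1305 adjusted counts in the controls and 725 and 691 in the SLFN5 siRNA libraries. The groups lay far apart compared with the spread inside each, at 1352 ± 67.4 and 708 ± 23.7 (SD, n = 2). The log2 change was -0.93 (SE 0.13, limma adjusted p = 0.000305), and 52.4% of the control level remained. Single pairings ranged from 49.4% to 55.6%, a narrower range than for SLFN5. The recovered counts, 2406 and 901 against 709 and 595, make it the member measured with the least counting error.

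SLFN12 (ENSG00000172123) fell by less and less evenly. Its values were 391 and 409 adjusted counts in the controls, 217 in SLFN5 siRNA 1 and 301 in the second SLFN5 siRNA library. Its groups did not overlap, but the SLFN5 siRNA libraries differed from each other more than the controls did. The log2 change was -0.64 (SE 0.19, limma adjusted p = 0.0249), with 64.0% of the control level left and single pairings from 53.0% to 77.0%. The call was lost without control 2 (log2 change -0.61, adjusted p = 0.0925) and without SLFN5 siRNA 1 (-0.41, adjusted p = 0.136). Each such fit leaves 1 library in a group, which is assumed to vary like the other group, with 1 residual degree of freedom. Its p therefore rests mainly on the variance trend pooled over genes. The prior degrees of freedom were infinite without control 2 and 9.58 without SLFN5 siRNA 1. The call of SLFN12 was also lost without the variance trend (adjusted p = 0.120) and when libraries were scaled by their totals alone (-0.52, adjusted p = 0.0606).

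SLFN13 (ENSG00000154760), the member closest in sequence to SLFN11, was rare and gave no call. Its values were 26.5 and 14.1 adjusted counts in the controls and 32.6 and 12.2 in the SLFN5 siRNA libraries, so the groups overlapped. The libraries numbered 1 were the higher ones in both groups. The log2 change was 0.05 (SE 0.56, limma adjusted p = 0.961). With 44, 9, 32 and 10 recovered counts, the change was not measured precisely. It ran from -0.63 without SLFN5 siRNA 1 to 0.72 without SLFN5 siRNA 2, a range that did not reach the -1.45 of SLFN5.

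The other 3 members were at or near the limit of detection and were not tested. SLFN12L (ENSG00000205045) had 7 and 4 counts in the controls and 4 and 11 in the SLFN5 siRNA libraries. Summed by group, this was 0.244 CPM (counts per 1000000 recovered counts, with an exact 95% Poisson interval of 0.122 to 0.436) against 0.471 (0.264 to 0.778), and the intervals overlapped. SLFNL1 (ENSG00000171790), a Schlafen-like gene on chromosome 1 outside the chromosome 17 cluster, had 10 and 1 counts in the controls and 3 and 8 after SLFN5 siRNA. Its group levels were 0.244 CPM (0.122 to 0.436) and 0.346 CPM (0.173 to 0.619). SLFN14 (ENSG00000236320) had 0 counts in all 4 libraries, which at 3 counts allows up to 0.0940 CPM in control 1, the deepest library, and up to 0.227 CPM in control 2, the shallowest. These intervals and limits cover counting error only.

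**Figure D1:**
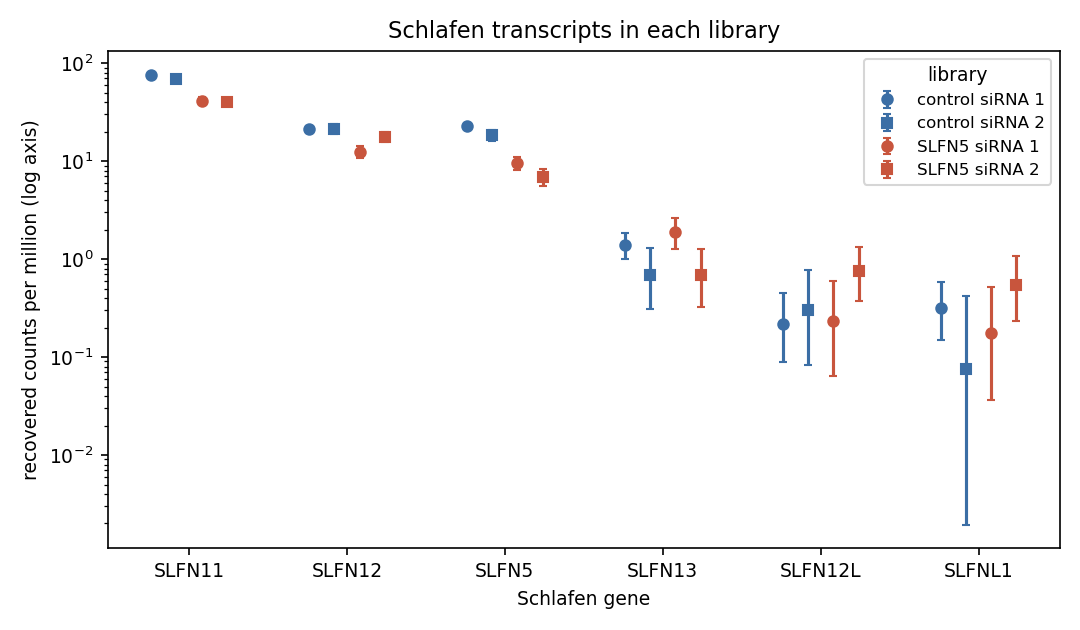
Recovered CPM (log axis) of the 6 Schlafen genes with any count, in each of the 4 libraries; bars are exact 95% Poisson intervals, which cover counting error only. The controls (blue) lie above the SLFN5 siRNA libraries (red) for SLFN11, SLFN12 and SLFN5, whereas the groups overlap for SLFN13, SLFN12L and SLFNL1, and SLFN14 had 0 counts and is not drawn.

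Of the 4 tested members, 3 were called lower, among them the siRNA target SLFN5, whose fall the design aimed at, and 0 higher. These counts stand against a broad difference between the groups: 4630 of the 15640 genes tested, or 29.6%, passed the same threshold (adjusted p under 0.05), 16.3% lower and 13.3% higher. In 34.1% of genes tested, both SLFN5 siRNA libraries lay below both controls, as they did for SLFN5, SLFN11 and SLFN12, and in 30.5% both lay above, as for 0 of the 4 tested members. A call by itself was therefore common, and the sizes differed more than the calls. A log2 change as low as that of SLFN5 or lower was found for 235 genes (1.503%), as low as that of SLFN11 for 864 (5.52%), and as low as that of SLFN12 for 1953 (12.5%). Genes called and at least 2-fold lower made up 3.13% of those tested. The median log2 change over all genes was -0.03, and it shifted by 0.12 when libraries were scaled by totals alone. SLFN5 and SLFN11 were called lower under all 15 alternative settings, with log2 changes from -1.70 to -1.20 and from -0.98 to -0.81.

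**Figure D2:**
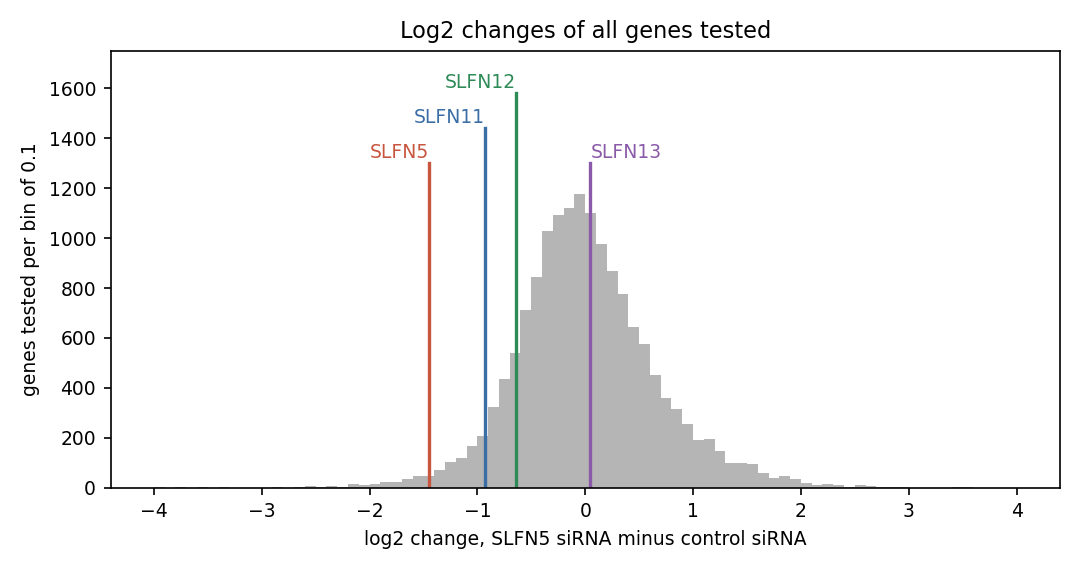
Number of genes tested per bin of 0.1 in log2 change (SLFN5 siRNA minus control siRNA), with the 4 tested Schlafen genes as coloured lines; the 3 genes beyond a change of 4 in either direction are drawn in the end bins. SLFN5 lies in the sparse left tail, SLFN11 and SLFN12 on the left flank and SLFN13 near the centre.

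**Figure D3:**
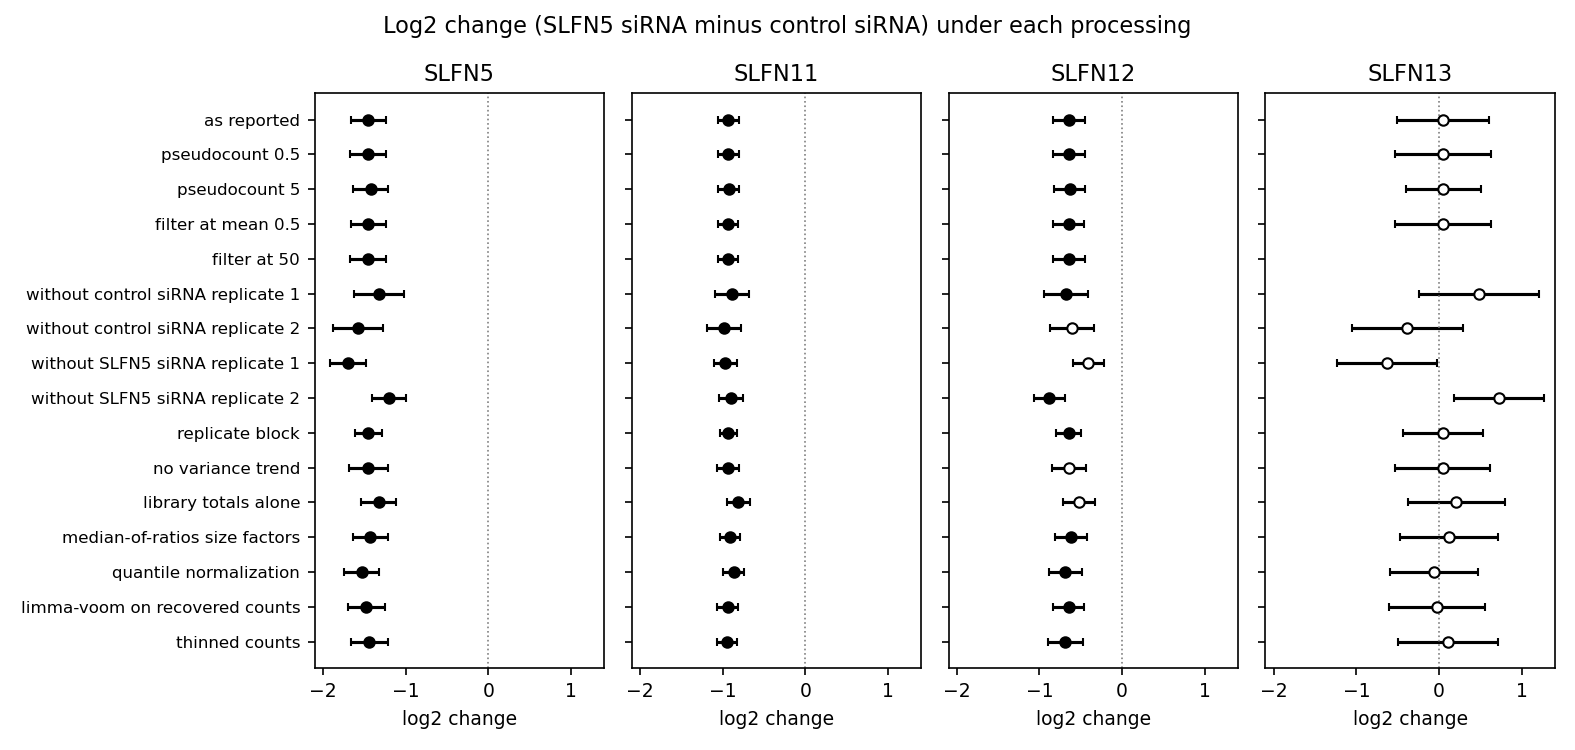
Log2 change with its standard error for the 4 tested Schlafen genes as reported and under each of 15 alternative settings; filled points have an adjusted p under 0.05, and SLFN13 has no value where the filter of 50 removed it. SLFN5 and SLFN11 are filled throughout, SLFN12 is open in 4 settings, and SLFN13 is open throughout and changes sign in 4.

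Levels can be compared between genes only per length, and per kilobase of exon the order was SLFN11, SLFN12, SLFN5 and, far below, SLFN13. In the controls SLFN11 had 12.01 ± 0.838 CPM per kilobase of exon, SLFN12 5.98 ± 0.0727 and SLFN5 1.92 ± 0.275 (SD, n = 2). The gaps between these 3 were wider than their spread. SLFN13 followed at 0.110 ± 0.0528, SLFN12L at 0.0543 ± 0.0123 and SLFNL1 at 0.0452 ± 0.0390, and the spreads of these 3 overlapped. After SLFN5 siRNA the first 4 stood at 6.85 ± 0.112, 4.22 ± 1.05, 0.765 ± 0.175 and 0.137 ± 0.0901 CPM per kilobase of exon, in the same order. Per kilobase of coding sequence instead of exon, the controls gave 26.6 for SLFN11, 12.3 for SLFN12, 7.67 for SLFN5 and 0.383 for SLFN13. The long exons of SLFN5 (10709 bases, against 5982 for SLFN11 and 3560 for SLFN12) make its level depend most on the length used, and the order did not change. Per length, the siRNA target was thus the least abundant of the 3 well-measured members in the controls.

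Ratios inside a library do not depend on how libraries were scaled to each other. The summed level of the 7 genes does depend on it, since CPM are scaled by library totals. Together they took 121 and 109 CPM in the controls and 65.6 and 67.0 CPM in the SLFN5 siRNA libraries. The mean fell from 115 ± 8.30 to 66.3 ± 0.989 (SD, n = 2), or to 0.576 of the control level. In adjusted counts the sum fell to 0.529 of it. SLFN5 made up 18.7% and 16.9% of the summed Schlafen counts in the controls and 14.5% and 10.3% after SLFN5 siRNA. SLFN11 made up 62.3%, 62.5%, 63.1% and 60.4% in the same library order. The share of SLFN5 was lower in both SLFN5 siRNA libraries, whereas that of SLFN11 overlapped between the groups. SLFN12 took 17.4% and 19.6% in the controls and 18.9% and 26.4% after SLFN5 siRNA, so its shares overlapped too.

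The ratio of SLFN11 to SLFN5 counts was 3.34 and 3.71 in the controls and 4.35 and 5.89 in the SLFN5 siRNA libraries. The ratio of SLFN12 to SLFN5 was 0.933 and 1.16 against 1.30 and 2.57. Both ratios were higher in each SLFN5 siRNA library than in each control, so that SLFN5 fell further than SLFN11 and SLFN12 in every pairing. The ratio of SLFN11 to SLFN12, at 3.58 and 3.18 against 3.34 and 2.29, overlapped between the groups. With 2 libraries against 2, an exact two-sided permutation test cannot give a p below 0.333, so these ratios are given as values only. In bulk RNA, fewer cells that express a gene and less RNA per cell cannot be told apart.

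**Figure D4:**
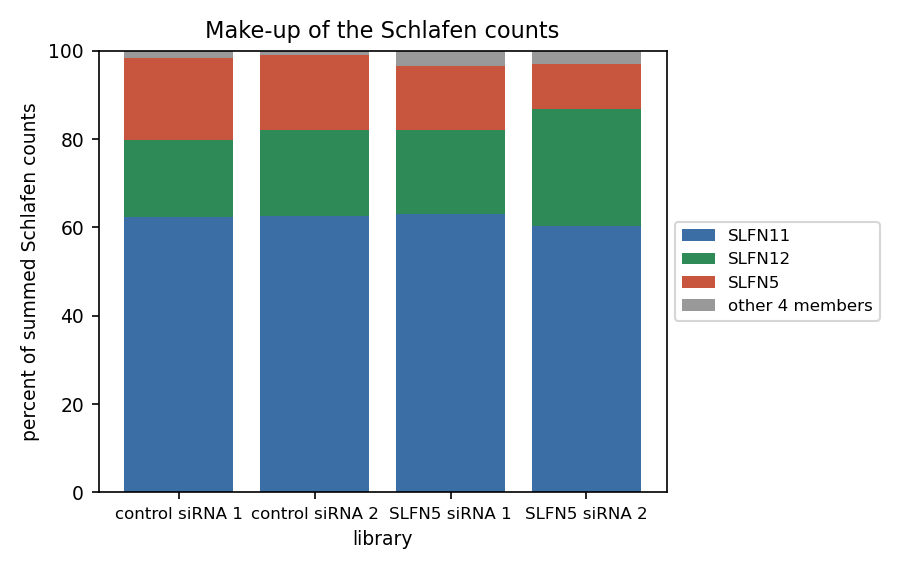
Make-up of the summed counts of the 7 Schlafen genes in each library, in percent (y axis from 0 to 100). SLFN11 takes between 60.4% and 63.1% in all 4 libraries, and SLFN5 falls from 18.7% and 16.9% in the controls to 14.5% and 10.3% after SLFN5 siRNA.

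All members but SLFNL1 lie side by side on chromosome 17, in the order SLFN5, SLFN11, SLFN12, SLFN13, SLFN12L and SLFN14. Genes on either side of the cluster were read as a comparison. Of the 20 nearest protein-coding neighbours, 10 on each side, 19 had a row and 12 were tested. Of these 12, 2 were called higher and 1 lower, against 13.3% and 16.3% of all genes tested, and their median log2 change was -0.21. TAF15, an RNA-binding transcription factor subunit, stood at 236 and 229 adjusted counts in the controls and 481 and 377 after SLFN5 siRNA (log2 change 0.87, SE 0.18, limma adjusted p = 0.0039). AP2B1, a clathrin adaptor subunit, rose from 2136 and 2142 to 3234 and 2796 (log2 change 0.49, SE 0.12, limma adjusted p = 0.0083). Without SLFN5 siRNA 1 the change of AP2B1 was 0.39 (adjusted p = 0.0512), and without the variance trend the adjusted p was 0.0612 for TAF15 and 0.104 for AP2B1.

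NLE1, a ribosome assembly factor near the SLFN5 end of the cluster, was lower at 566 and 658 against 487 and 356 adjusted counts (log2 change -0.55, SE 0.18, limma adjusted p = 0.0353). Its call was lost in 6 of 15 alternative settings, among them those without control 2 (-0.44, adjusted p = 0.195) and without SLFN5 siRNA 2 (-0.33, adjusted p = 0.194). The 9 neighbours without a call had log2 changes from -0.79 (UNC45B, a myosin chaperone) to 1.23 (CCT6B, a testis chaperonin subunit). CCL5, the chemokine gene, was among them at 34.6 and 21.3 against 20.4 and 13.0 adjusted counts (log2 change -0.70, limma adjusted p = 0.304). Other genes without a call were LIG3 (-0.27) and RAD51D (-0.16), both DNA repair genes, RFFL (0.04) and RDM1 (0.49). ZNF830 stood at 320 and 326 against 211 and 327 adjusted counts (log2 change -0.30), and passed the threshold without SLFN5 siRNA 2 (-0.61, adjusted p = 0.0439).

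**Figure D5:**
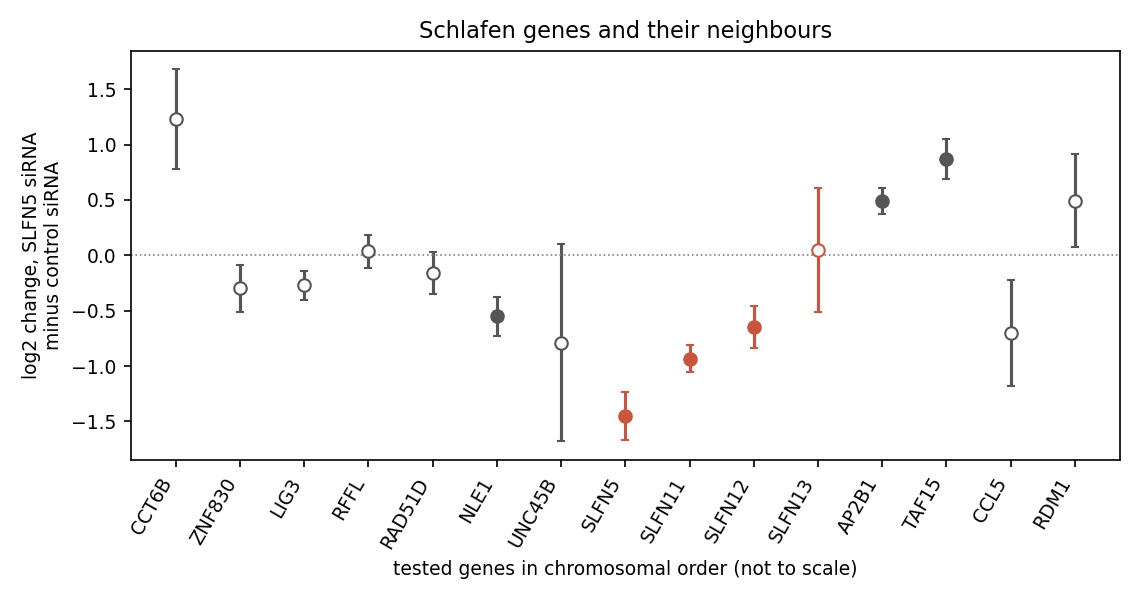
Log2 change with its standard error for the tested Schlafen genes (red) and all but 1 of their tested neighbours (grey), in chromosomal order and not to scale; filled points have an adjusted p under 0.05. SLFN5 at -1.45, SLFN11 at -0.93 and SLFN12 at -0.64 are filled and below 0; of the neighbours, NLE1 is filled below 0 and AP2B1 and TAF15 above it.

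Promoter sequences from RefSeq (GRCh38.p14, 300 bases around the gene start) matched 3 of the 7 members: SLFN11, SLFN12 and SLFN12L. Those of SLFN11 and SLFN12 are shown because these members were called lower without being the siRNA target. Capitals mark the letters of the searched motifs described next.
SLFN11, chr17:35373572-35373871, minus strand: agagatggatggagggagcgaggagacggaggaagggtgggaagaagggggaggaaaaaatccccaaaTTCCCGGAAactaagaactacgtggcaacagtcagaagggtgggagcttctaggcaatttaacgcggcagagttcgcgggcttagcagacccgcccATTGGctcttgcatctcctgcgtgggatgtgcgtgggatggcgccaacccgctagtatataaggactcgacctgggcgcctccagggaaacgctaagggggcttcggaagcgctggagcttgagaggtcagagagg
SLFN12, chr17:35433125-35433424, minus strand: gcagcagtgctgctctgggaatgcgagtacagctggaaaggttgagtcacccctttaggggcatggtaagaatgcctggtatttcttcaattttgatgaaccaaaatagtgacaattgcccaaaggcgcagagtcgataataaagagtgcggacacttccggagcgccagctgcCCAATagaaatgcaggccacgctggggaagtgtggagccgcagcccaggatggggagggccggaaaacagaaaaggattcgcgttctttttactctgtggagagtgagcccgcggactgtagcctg
The SLFN11 stretch was 58% G and C and the SLFN12 stretch 53.3%. These motifs were searched on both strands: the core of the interferon-stimulated response element (GAAA, then 2 bases of any kind, then GAAA), the gamma-activated site bound by STAT factors (TTCNNNGAA), the CCAAT box (CCAAT) and the TATA box (TATAAA). The letters of the gamma-activated site stood once in SLFN11, at base -182 from the gene start, and 0 times in SLFN12, and 7.66% of all 35116 promoters hold them. CCAAT or its reverse stood at -86 in SLFN11 and -76 in SLFN12, against 34.6% of all promoters. The response element core was found in neither of these, and in 3.57% of all promoters. The exact letters TATAAA were also in neither, against 11.5% of all promoters. Variants of the TATA box, such as the tatataag in the SLFN11 stretch shown, were not searched. In SLFN12L, the member with only 26 counts, the gamma-activated site stood 2 times and the response element core 1 time, at -126.

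Since Schlafen genes are interferon-regulated, genes of interferon signalling were listed: interferons, their receptors, carriers of the signal and its inhibitors. Of 26 such genes, 21 were tested, 3 were called higher and 8 lower, where 13.3% and 16.3% of all genes tested were. The median log2 change was -0.39, against -0.03 over all genes tested. The 8 lower included the inhibitors SOCS1 (-1.42), SOCS3 (-0.62) and PTPN2 (-0.60), whereas the inhibitors USP18 (-0.44) and PIAS1 (-0.09) had no call. The count of 8 lower fell to between 4 (without control 2 or SLFN5 siRNA 2) and 6 when a library was left out, to 5 with library totals alone and to 1 without the variance trend. Among the transcription factors, IRF7 rose from 54.5 and 36.0 to 127 and 130 adjusted counts (log2 change 1.51, SE 0.30, limma adjusted p = 0.0028). STAT3 rose from 961 and 1006 to 2048 and 1988 (log2 change 1.04) and STAT2 from 819 and 785 to 1339 and 1171 (0.64, with an adjusted p of 0.0691 without the variance trend). IRF1 fell from 1818 and 1681 to 1165 and 1070 (log2 change -0.65, limma adjusted p = 0.0022, and 0.0656 without the variance trend).

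IFNAR2, a chain of the type I interferon receptor, fell from 482 and 455 to 328 and 240 (log2 change -0.74, limma adjusted p = 0.0108). SOCS1, a feedback inhibitor of JAK kinases, fell from 69.7 and 58.6 to 24.5 and 22.2 (log2 change -1.42, limma adjusted p = 0.0107). The adjusted p of IFNAR2 was 0.0926 without the variance trend and 0.0569 without SLFN5 siRNA 2 (log2 change -0.51), and without control 1 that of SOCS1 was 0.0874 (-1.29). IRF9, a DNA-binding part of the complex that sits on the response element, had 38 counts over the 4 libraries and was not tested. The interferon genes IFNB1, IFNA1 and IFNG had 0 counts in all libraries, and IFNL1 had 1.

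Interferon-stimulated genes went both ways. Of 50 listed, 48 were tested, 6 were called higher and 6 lower, and the median log2 change was -0.04. Both shares were close to the 13.3% and 16.3% over all genes tested. The count of 6 higher was 3 without control 2 or without SLFN5 siRNA 2. IFI35 rose from 212 and 203 to 446 and 343 adjusted counts (log2 change 0.91), TRIM5, a retroviral restriction factor, by 0.83, and the guanylate-binding protein gene GBP3 by 0.62. GBP2 fell from 94.2 and 94.1 to 52.0 and 21.6 adjusted counts (log2 change -1.46, limma adjusted p = 0.0162), and by less without SLFN5 siRNA 2 (-0.84, adjusted p = 0.0717). IFIT2, which binds viral RNA, fell from 408 and 309 to 178 and 119 (log2 change -1.28, limma adjusted p = 0.0019), and TRIM14 fell by 0.81 on the log2 scale. Without the variance trend the calls were 0 higher and 0 lower, and the 6 genes named here had adjusted p from 0.0605 to 0.109 at the same log2 changes.

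Of 14 partners and named targets of Schlafen proteins, 12 were tested, 2 were called higher and 2 lower, shares near the 13.3% and 16.3% over all genes tested. The collagenase genes MMP13 and MMP1, listed with their response in these libraries known, rose from 72.8 and 36.8 to 716 and 470 adjusted counts (log2 change 3.46) and from 179 and 203 to 846 and 596 (1.89). RPA2, a subunit of the single-strand DNA-binding complex that SLFN11 binds, fell from 2389 and 2411 to 1373 and 1428 (log2 change -0.78, SE 0.11, limma adjusted p = 0.0005). CUL4A, of the ubiquitin ligase with which SLFN11 acts on CDT1, fell from 2083 and 2194 to 1497 and 1589 (log2 change -0.47, limma adjusted p = 0.0094), though at -0.43 (adjusted p = 0.0859) once control 2 was left out and with an adjusted p of 0.0954 without the variance trend. PDE3A, the partner of SLFN12, had 5 counts in all and was not tested. ZEB1, a transcription factor linked to SLFN5 in carcinoma cells, stood at 469 and 603 against 438 and 502 (log2 change -0.18, SE 0.17, limma adjusted p = 0.456).

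The genes whose pattern over the 4 libraries was most like that of SLFN5 were sought among 15481 named tested genes, by the distance between centred log2 values. The 5 nearest were PRELID1P1 (distance 0.110), SLN (0.167), NDST1 (0.167), KIF26B (0.176) and GORASP2 (0.180). PRELID1P1 was rare, at 23.4 and 20.6 against 8.17 and 5.90 adjusted counts, and was not called (limma adjusted p = 0.0549). NDST1, a heparan sulfate enzyme, stood at 13841 and 11312 adjusted counts in the controls and 4726 and 3619 after SLFN5 siRNA. The 5 nearest to SLFN11 were SF1 (0.0393), TGFBRAP1 (0.0423), LRP4 (0.0479), JKAMP (0.0534) and BCAS4 (0.0554). SF1, a splicing factor, stood at 1868 and 1769 against 1004 and 947. The other Schlafen genes were not among the 5 nearest. Of the 15481 genes, SLFN11 was 375th to SLFN5 (distance 0.610) and SLFN12 was 2706th. SLFN12 was 1949th to SLFN11 (0.493) and SLFN5 was 3042nd to it (0.610). Likeness over 4 libraries says nothing of shared control, and it includes the group difference.

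The markers of 786-0 cells and of other cell types were checked beside these results. The kidney factor PAX8 was present in all libraries (4129 and 3726 against 3994 and 3392 adjusted counts, log2 change -0.09, limma adjusted p = 0.610). LRP2 had 0 counts and CA9 4, both known from proximal tubule or clear cell carcinoma. Of the 19 renal markers, 15 were tested, 6 were called higher, led by CUBN, CDH6 and LHX1, and 3 lower, which were NNMT, CDH2 and VIM, against 13.3% and 16.3% of all genes tested. Without the variance trend, 1 was called higher and 0 lower. The call of VIM was lost without any single library (adjusted p from 0.0554 to 0.0897) at log2 changes of -0.49 to -0.43, against -0.46 with all 4, and that of CUBN without control 2 (1.38, adjusted p = 0.102) or SLFN5 siRNA 2 (1.71, adjusted p = 0.0769), against 1.88. Of 13 leukocyte markers, 3 were tested and 0 were called, and PTPRC had 1 count and CD3E, CD2, MS4A1 and NKG7 had 0. The tested ones were NCAM1, CSF1R and ITGAM. CSF1R stood at 23.5 and 28.6 against 28.6 and 23.4 adjusted counts. ITGAM stood at 11.2 and 2.21 against 30.6 and 17.8 (log2 change 1.96, limma adjusted p = 0.0559). The leukocyte sum of 918 to 962 adjusted counts in the controls and 952 to 1011 after SLFN5 siRNA was nearly all NCAM1. Fibroblast markers summed to 121 to 192 against 93.3 to 114, with 1 of 4 tested called lower (PDGFRB, log2 change -1.82, a call lost in 7 of 14 alternatives at changes of -1.88 to -1.26). Endothelial markers summed to 28.6 to 43.3 against 56.3 to 76.0, with 0 of 2 tested called and PECAM1 at 0. The tested ones, ESAM and ROBO4, had log2 changes of 1.71 and 0.86 (limma adjusted p = 0.0595 and 0.207). The part of these differences in the Schlafen values was not tested.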

How the data were processed

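Per the labels' protocols, total RNA of transfected 786-0 cells was poly(A)-selected (Illumina TruSeq) and sequenced from a single end. The authors used edgeR and the build hg19, per the submitters' processing notes, and how reads were aligned and counted is not given in the sources used here. Triplicates are mentioned in the design text of the series; the 4 libraries used here make 2 per group. Deposited is a signal for each gene: read counts that the authors adjusted to a common library size, called adjusted counts here. They could be inverted to whole counts for all 230636 values (tolerance 1e-06). The recovered totals were 31905328 and 13187517 counts in controls 1 and 2 and 17117659 and 14700669 in SLFN5 siRNA 1 and 2. Libraries of a group differed by far more than sampling noise (chi-square over its degrees of freedom 15.9 in both groups).

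Genes that reached 10 adjusted counts in 2 or more libraries were tested with limma 3.58.1 in R 4.3.3 on log2(value + 1), with group as the only term, a variance trend (prior degrees of freedom 9.60, residual 2) and Benjamini-Hochberg adjustment at 0.05. This scale understates changes of rare genes. The recovered counts gave CPM, shares and ratios. Exon and coding lengths and shared sequences came from GENCODE v29 (GRCh38), whose build differs from that of the files. The scripts were tested on simulated data. Alternatives were other pseudocounts, filters, scalings, a replicate block, limma-voom, thinned counts and leaving out each library, plus coding length, which was chosen after seeing the data. The text names all members, the tested neighbours, the 3 called members of each list with the largest change per direction, some genes fixed by name, and the 5 genes most like SLFN5 and SLFN11. CCL5 and other neighbours fall under this rule. The single interferon genes, the interferon-signal inhibitors other than SOCS1, the absent markers and the tested leukocyte and endothelial markers were named after their values were seen. Members and lists were chosen with earlier results of these data known. A few genes that the rule names are not reported here, and they remain in the counts of their lists.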

Additional observations from a re-analysis of the deposited data

How the results depend on the processing

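The direction and call of SLFN5 and SLFN11 were the same under all 15 alternatives, with the highest adjusted p (0.0469 and 0.0432) without the variance trend. SLFN12 lost its call without the variance trend (-0.64), with library totals alone (-0.52) and without control 2 (-0.61) or SLFN5 siRNA 1 (-0.41), and kept it without either of the other libraries (log2 changes over left-out libraries -0.88 to -0.41). SLFN13 changed sign with quantile normalization (-0.063), with limma-voom (-0.022) and over left-out libraries (-0.63 to 0.72), and was not tested at a filter of 50. Counts of all genes called, 2086 higher and 2544 lower, became 672 and 510 without the variance trend and ran from 1346 to 1767 and from 1588 to 2341 over left-out libraries. The low ends came without control 2. Library totals alone gave 2773 higher and 1747 lower (61.3% higher, against 45.1% as reported). Over the 7 lists, 17 higher and 20 lower became 5 and 2 without the variance trend. Of the neighbours, 2 higher and 1 lower became 1 and 0 without the variance trend, 0 lower without the filter, with library totals or with quantile normalization, and 1 to 2 higher and 0 to 1 lower over left-out libraries. PAX8 turned to 0.031 with library totals and 0.072 with quantile normalization, and ran from -0.21 to 0.026 over left-out libraries. Over left-out libraries ZNF830 ran from -0.61 to 0.016, RFFL from -0.14 to 0.21 and UNC45B from -1.95 to 0.37. The cause was not tested. Per kilobase of coding sequence the control levels were 7.67, 26.6, 12.3 and 0.383 for SLFN5, SLFN11, SLFN12 and SLFN13.

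Libraries with the same number in the 2 groups also share a code in their titles, the labels do not say what number or code marks, and only 2 pairs exist. Deviations of same-numbered libraries correlated at 0.19 over the tested genes and 0.37 over the 10541 with a mean of at least 100. With the replicate number as a block, 3008 genes were called higher and 3695 lower, the 7 lists had 25 members higher and 32 lower, and 3 neighbours were higher and 2 lower. The interferon-stimulated genes had 10 higher and 10 lower. The block changed no call of a Schlafen gene. Depth limits what can be said of SLFN13, SLFN12L, SLFNL1 and SLFN14.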
